A study of Mus musculus with 19 samples.

Results

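The CA1 region of the hippocampus was compared between 7 old mice that received an inhibitor mix against 3 microRNAs (old anti-miR-mix) and 6 young mice that received control oligonucleotides. The aim of the comparison was to describe which pathways and cell types still separated treated old tissue from young tissue. These 13 libraries were drawn by their labels from the 19 libraries of the series. The test covered genes that reached 5 reads in 50% or more of these libraries, which were 19312 of 48709.

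The young mice were 3 months old and the old anti-miR-mix mice, called treated below, were 16.5 months old. All were male C57B/6J wild-type mice, as the study's methods spell the strain, and both groups received lipid nanoparticles into the dorsal hippocampus before CA1 was microdissected. The oligonucleotides carried by the particles differed, namely scrambled controls in young mice and the inhibitor mix (anti-miR-mix) in treated mice. Age and inhibitor therefore changed together and cannot be told apart in this comparison. Titles of the control groups contain the words anti-miR-mix as well, but their descriptions name the groups used here, and by the study's methods both received control oligonucleotides. Each library is 1 sample by its label, so p-values measure the spread between these samples. Levels in 6 libraries of 16.5-month-old mice that received control oligonucleotides (old control) are given beside some of the results. These levels are values only, because a comparison of old control with young mice would share the young libraries.

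MicroRNAs are short RNAs that guide silencing complexes to messenger RNAs, which they recognise mainly through the seed, a short stretch near the 5′ end. An inhibitor is a modified oligonucleotide that pairs with the microRNA and blocks it. CA1 holds the pyramidal neurons that send the hippocampal output to the subiculum and cortex, along with inhibitory neurons, astrocytes, oligodendrocytes and their precursors, vascular cells and microglia. Microglia are the resident macrophages of the brain. In ageing and near damage they can take on an activated state with high expression of phagocytic, lysosomal, lipid-handling and antigen-presenting genes, which runs in part through the receptor TREM2 and its signalling partner TYROBP. Astrocytes respond to the same conditions with more intermediate filament proteins, and new oligodendrocytes arise from precursors throughout life at a rate that falls with age.

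The 3 target microRNAs and the oligonucleotides are shown because they define the treatment. In the mature microRNAs, which were taken from RefSeq (GRCm38.p6), capitals mark the seed (bases 2 to 8 from the 5′ end). Mature miR-181a-5p comes from chr1:137966468-137966490 and chr2:38852741-38852763 (both + strand), miR-146a-5p from chr11:43374435-43374456 (- strand) and miR-148a-3p from chr6:51269829-51269850 (- strand). In the inhibitors, which were taken from the study's list of oligonucleotides, capitals mark the bases complementary to the seed. All sequences run 5′ to 3′.
miR-181a-5p: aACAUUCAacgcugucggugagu
miR-146a-5p: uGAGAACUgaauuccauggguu
miR-148a-3p: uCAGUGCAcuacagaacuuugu
inhibitor of miR-181a-5p: actcaccgacagcgtTGAATG
inhibitor of miR-146a-5p: acccatggaattcAGTTCTC
inhibitor of miR-148a-3p: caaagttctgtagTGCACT
negative control for inhibitor: taacacgtctatacgccca
The 3 seeds differ from each other. The inhibitor of miR-146a-5p is 20 bases long and pairs with bases 2 to 21 of its target, so that it covers all 7 seed bases. The inhibitors of miR-181a-5p (21 bases) and miR-148a-3p (19 bases) begin pairing at base 3 and cover 6 of the 7 seed bases. The control oligonucleotide held the full complement of 0 of the 3 seeds.

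The 13 libraries held between 26653511 and 38908947 reads assigned to genes, and 99.95% of these reads fell in tested genes. Young libraries lay between -33.8 and -5.52 and treated libraries between 0.131 and 30.9 on the first principal component of log2 CPM. This component held 22.9% of the variance, and CPM are reads scaled to the library's total of tested genes after TMM adjustment. The deposited log2 values equal log2(CPM + 1), there with plain totals, minus a slope per gene times a number per library. This number was inferred here from these values, up to its scale, as 1, 2, 3 or 4 (inferred number). What it stands for is not given in the sources used here. The numbers 1 to 4 were held by 1, 1, 2 and 2 young libraries and by 1, 2, 3 and 1 treated libraries. Libraries of 1 group differed by 6.47 to 35.9 chi-square units per degree of freedom over 12780 genes, which is above counting noise. Old control 5 and 6 differed by 2.18, and the other old control pairs by at least 6.1. The library kit named in the labels (TruSeq RNA Library Prep Kit v2) does not mark strand, so reads of genes that overlap cannot be told apart, which concerns among others Cx3cr1, P2ry12, Gpr17, Cd74, Cxcl16, Fgf2, Sox4, Eml1, Elovl6, Map3k13, Pik3r3, Itga10 and Mmp12 and the pairs Tap1 and Psmb9, Tmem163 and Mgat5, and Tmem176a and Tmem176b.

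A total of 893 of 19312 genes (4.62%) passed an adjusted p of 0.05 with edgeR's quasi-likelihood test. Of these, 674 were higher (3.49% of genes tested) and 219 lower (1.13%) in treated than in young CA1. Called genes differed by a median of 0.53 on the log2 scale in either direction, and the median log2 fold change of all genes tested was -0.0015. Large changes were mostly increases, with 158 genes higher by more than 1 on the log2 scale and 2 genes lower by more than 1. Values of the groups did not overlap in 462 genes (2.39%), of which 407 were among those called. Of the higher genes, 23 reached 5 reads in fewer than 50% of the young libraries and entered the test only through the treated libraries, which by itself required them to differ, and 0 of the lower genes entered only through the young libraries. The share of higher calls was 75.5%, and it fell to 62.2% (670 higher and 408 lower) once a smooth dependence on GC and transcript length had been taken out of each library. Protein-coding genes made up 629 of the higher and 211 of the lower calls. Below, all fold changes are treated over young, errors are standard errors (SE) of the log2 fold change, and adjusted p-values are from this test. Amounts by which genes rose or fell, and single values given for a gene without the unit CPM, are log2 fold changes. Where 3 levels are given per group, they are the lowest, median and highest CPM, first of the young and then of the treated libraries.

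Marker lists are described by their counts of calls (the plot of cell type markers). They were chosen with earlier results of these data known, so these counts do not test where the changes lay. Among all genes tested, 3.49% were called higher and 1.13% lower, and each count below stands beside these shares. Among cell type lists, microglial lists held the highest shares of called members, astrocytes and other leukocytes held some, differentiating oligodendrocytes and immature neurons held lower members, and mature neuronal and vascular lists held few or no calls. Because these are bulk libraries, fewer cells of a type and less RNA per cell cannot be told apart.

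**Figure D1:**
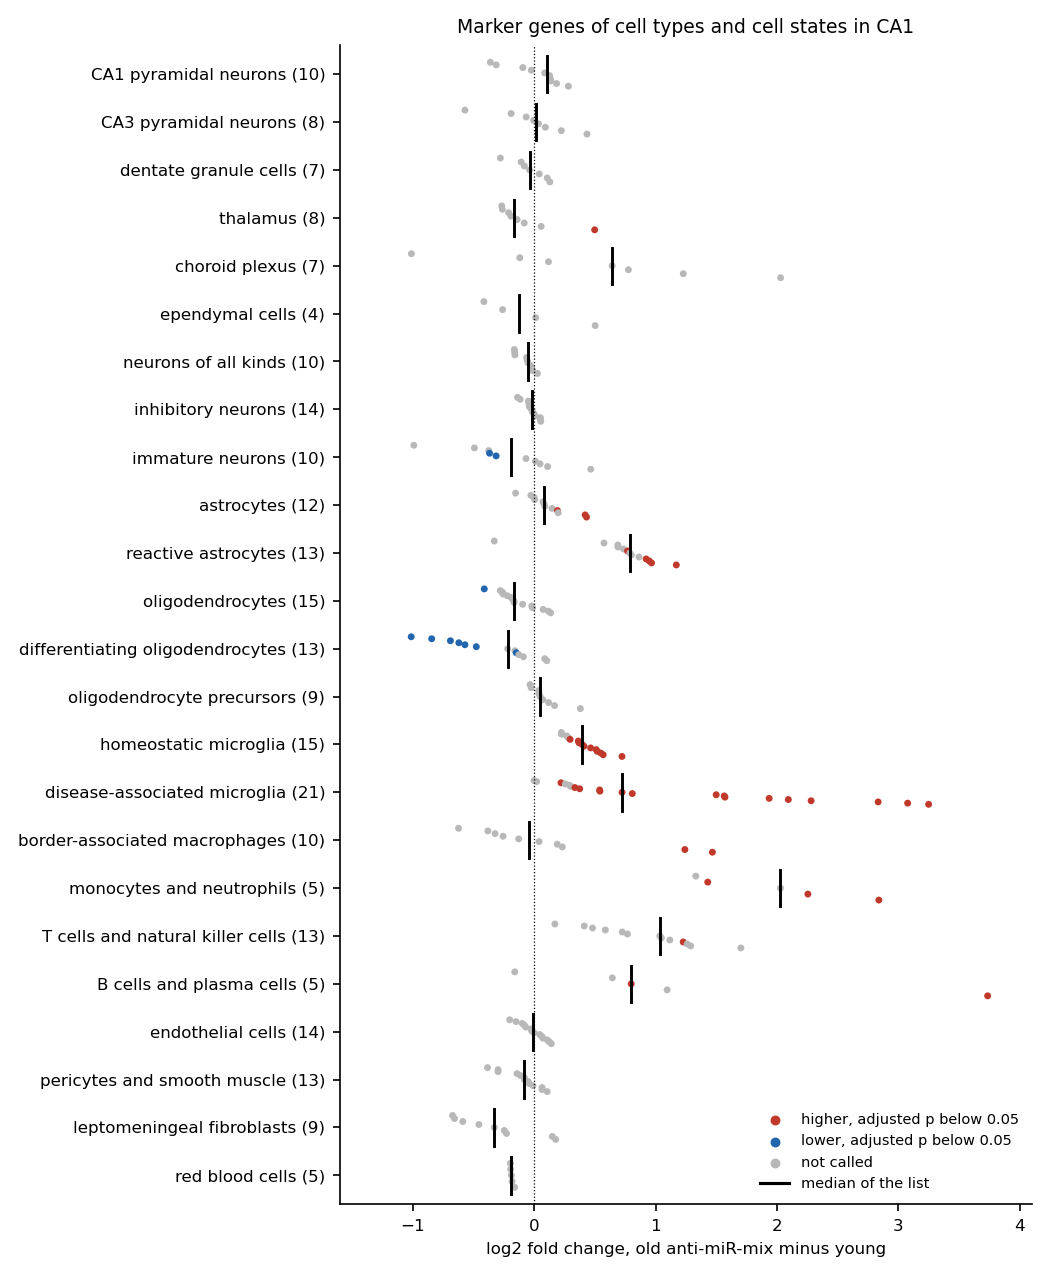
Log2 fold changes (x axis, old anti-miR-mix minus young) of marker genes of 24 cell types or states, with the number of genes tested in parentheses. Each point is a gene, red if higher and blue if lower at an adjusted p below 0.05, and the black bar is the median of the list. All 16 called disease-associated microglial markers lie right of 0, and all 7 called markers of differentiating oligodendrocytes lie left of 0.

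Homeostatic microglial genes, which mark resting microglia, were higher in treated CA1. Of 15 members tested, 11 were called higher (73.3%, beside 3.49% of all genes) and 0 lower, and their median log2 fold change was 0.40 (range 0.22 to 0.72). Lowest, median and highest values of Cx3cr1, the fractalkine receptor, were 47.9, 55 and 60.5 CPM in young and 67, 79.8 and 91.6 CPM in treated libraries. The groups did not overlap (log2 fold change 0.55 ± 0.077, adjusted p = 0.00094). Fcrls, an Fc receptor-like scavenger receptor, and P2ry13, a receptor for ADP, were also higher in every treated than in every young library (0.72, adjusted p = 0.0017, and 0.51, adjusted p = 0.002). The receptor for colony-stimulating factor 1, Csf1r, on which microglia depend for survival, rose by 0.40 (adjusted p = 0.0066), and the transcription factor Sall1 rose by 0.30 (adjusted p = 0.0038). The defining markers P2ry12, an ADP receptor on microglial processes, and Tmem119 did not pass the test. P2ry12 gave 36.7, 38.2 and 47.4 CPM in young and 38.5, 48.7 and 54.4 CPM in treated libraries (0.27, adjusted p = 0.082), and Tmem119 gave 18.1, 23.8 and 26.6 and 21.7, 27.4 and 30.6 CPM (0.23, adjusted p = 0.23). For both, the groups overlapped. Summed over the list, levels were 451 to 547 CPM in young and 593 to 767 CPM in treated libraries.

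Genes of disease-associated microglia, an activated state described around amyloid plaques and in aged brain, were higher as well, some by large factors. A total of 16 of 21 members were called higher (76.2%) and 0 lower, with a median log2 fold change of 0.72. Cst7 (cystatin F, an inhibitor of lysosomal cysteine proteases, chr2:150570415-150578944, + strand in GRCm38) gave values of 0.326, 0.874, 1.69, 0.444, 1.11 and 0.539 CPM in young 1 to 6 and of 3.78, 9.82, 10.2, 10.04, 12.2, 2.44 and 6.89 CPM in treated 1 to 7. Every treated library lay above every young library, treated 6 and 1 were lowest within their group, and young 3 was highest within its group. The difference was 9.5-fold (log2 fold change 3.25 ± 0.41, adjusted p = 0.00049). Itgax (integrin alpha X, also called CD11c, chr7:128129547-128150657, + strand) gave 0.76, 1.06, 1.69, 1.49, 1.81 and 0.689 CPM in young 1 to 6 and 6.31, 17.8, 14.3, 12.6, 13.6, 3.29 and 6.75 CPM in treated 1 to 7 (8.43-fold, log2 fold change 3.08 ± 0.37, adjusted p = 0.00035). Clec7a (dectin-1, a receptor for fungal glucans, chr6:129461591-129472779, - strand) gave 0.905, 1.84 and 3.44 CPM in young and 4.39, 16.7 and 22.3 CPM in treated libraries (7.12-fold, log2 fold change 2.83 ± 0.38, adjusted p = 0.0007). None of these genes overlapped between the groups, and treated 6 was the lowest treated library for all 3. Old control libraries gave lowest, median and highest values of 0.559, 1.53 and 4.66 CPM for Cst7, 1.14, 3.02 and 4.43 CPM for Itgax and 1.38, 5.26 and 8.25 CPM for Clec7a.

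Other members of this list were higher by smaller factors. Apoe, the main lipid carrier of the brain, was at 962, 1109.7 and 1157 CPM in young and 1385, 1633 and 1880.1 CPM in treated libraries, without overlap (log2 fold change 0.54 ± 0.072, adjusted p = 0.0007). Lysosomal cathepsins D, Z and B (Ctsd, Ctsz and Ctsb) rose by 0.72, 0.81 and 0.22 on the log2 scale. The secreted phosphoprotein Spp1 (osteopontin) rose by 2.09, the sugar-binding lectin Lgals3 by 2.28, the glycoprotein Gpnmb by 1.57, the cholesterol hydroxylase Ch25h by 1.94 and the chemokine Ccl6 by 1.57. Lpl, Cd9, Igf1, Ank and Fth1 did not pass the test, with log2 fold changes of 0.30, 0.29, 0.020, -0.000776 and 0.26. Lipoprotein lipase (Lpl) and insulin-like growth factor 1 (Igf1) are also made by neurons and other cells. Summed over the list, levels were 3364 to 3969 CPM in young and 4154 to 5379 CPM in treated libraries. Apoe alone made up a large part of this sum, while Cst7, Itgax and Clec7a added little to it.

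**Figure D2:**
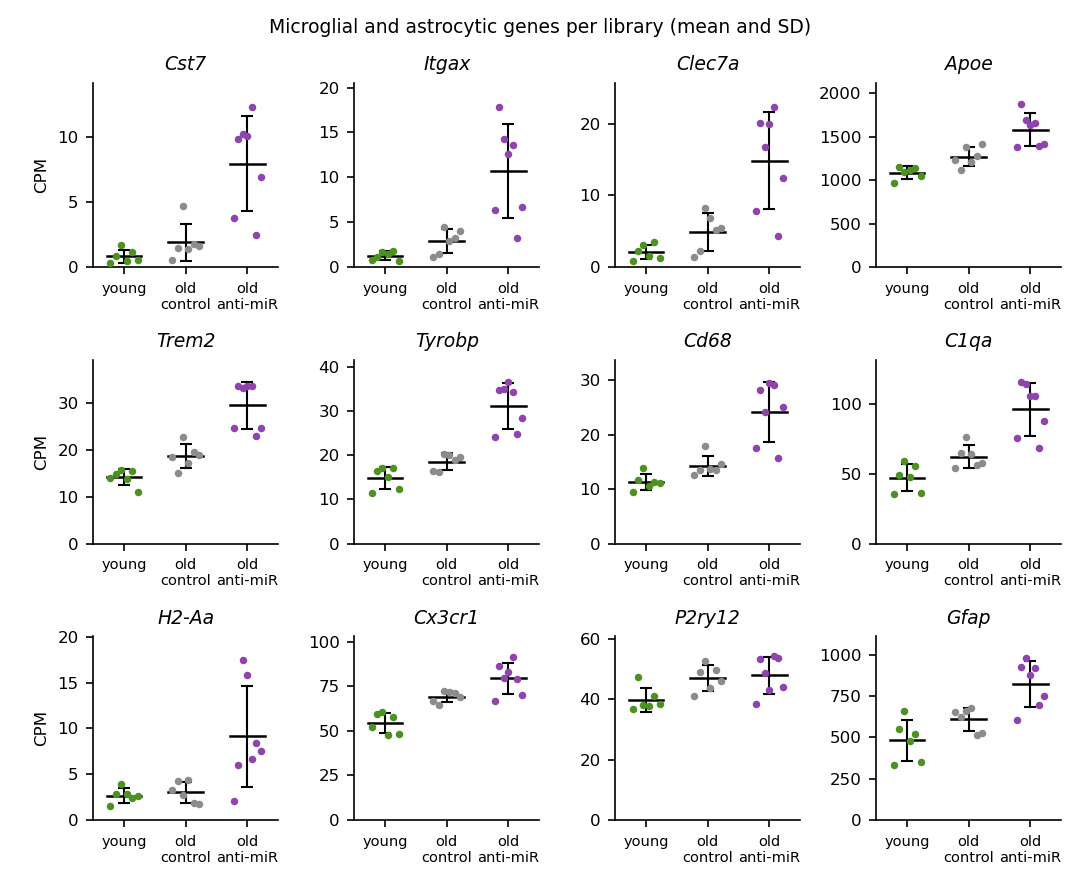
Levels (y axis, CPM from 0) of 12 genes in every library of the young (green, n = 6), old control (grey, n = 6) and old anti-miR-mix (purple, n = 7) groups, with mean and SD in black. Young and treated values do not overlap for Cst7, Itgax, Clec7a, Apoe, Trem2, Tyrobp, Cd68, C1qa and Cx3cr1, and overlap for H2-Aa, P2ry12 and Gfap.

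TREM2 binds lipids and apolipoproteins on the microglial surface and signals through TYROBP, the kinase SYK and phospholipase C gamma 2, while the phosphatase INPP5D opposes this signal. Fc receptors for antibodies share part of this cascade. Of 19 genes of this group, 16 were called higher and 0 lower, with a median log2 fold change of 0.70. The receptor Trem2 (chr17:48346401-48354147, + strand) was at 13.9, 14.9, 15.7, 13.8, 15.5 and 11 CPM in young 1 to 6 and at 24.6, 33.6, 33.2, 33.6, 33.5, 23 and 24.6 CPM in treated 1 to 7. The lowest treated library lay above the highest young library (2.08-fold, log2 fold change 1.06 ± 0.11, adjusted p = 0.00015). Its partner Tyrobp was at 11.4, 15.7 and 17.1 CPM in young and 24.1, 34.4 and 36.6 CPM in treated libraries (log2 fold change 1.07 ± 0.12, adjusted p = 0.00025). The common Fc receptor chain Fcer1g was at 7.24, 8.7 and 11.1 and 12.2, 17.8 and 20.9 CPM (log2 fold change 0.97 ± 0.12, adjusted p = 0.00047). Both were higher in every treated than in every young library.

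Downstream and opposing genes of this cascade moved the same way. Plcg2, the phospholipase, rose by 0.61 (adjusted p = 0.0068) and the exchange factor Vav1 by 0.70 (adjusted p = 0.0021). Inpp5d, which removes a phosphate from the lipid messenger made by PI3 kinase, was at 14.7, 16.6 and 19.8 CPM in young and 21.7, 26.7 and 27.1 CPM in treated libraries, without overlap (log2 fold change 0.58 ± 0.078, adjusted p = 0.0007). The inhibitory sialic acid receptor Cd33 rose by 0.59 (adjusted p = 0.0053), the inhibitory antibody receptor Fcgr2b by 0.98 (adjusted p = 0.0035) and the activating receptor Fcgr3 by 0.74 (adjusted p = 0.003). Spi1, which encodes PU.1, a transcription factor that specifies macrophages and microglia, rose by 0.76 (adjusted p = 0.0021). The kinase Syk itself and the adaptor Card9 did not pass the test (0.17, adjusted p = 0.37, and 0.32, adjusted p = 0.14), nor did the receptor Fcgr4 (1.02, adjusted p = 0.14).

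Lysosomal genes were higher in treated CA1 in 16 of 27 cases and lower in 0, with a median log2 fold change of 0.22. Cd68, a lysosomal membrane protein used to stain phagocytic microglia, was at 9.48, 11.2 and 13.9 CPM in young and 15.7, 25.1 and 29.6 CPM in treated libraries, without overlap (log2 fold change 1.09 ± 0.14, adjusted p = 0.00065). Laptm5, a lysosomal membrane protein of leukocytes, and the cysteine protease Ctsh rose by 0.70 and 0.76 (adjusted p = 0.0012 and 0.0018). Cathepsin E (Ctse), counted among these calls, had 1 to 5 reads per young library and 6 to 26 reads per treated library, and it entered the test only through the treated libraries. Grn, the progranulin precursor, rose by 0.43 and the cholesterol carrier Npc2 by 0.35. Members that did not pass included Lamp1 (0.11, adjusted p = 0.2) and Neu1 (-0.030, adjusted p = 0.77).

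Genes for the leukocyte cytoskeleton and the phagocyte NADPH oxidase, which makes superoxide, were higher in 14 of 19 cases, with a median log2 fold change of 0.65. Cybb, the catalytic subunit, rose by 1.65, its partner Cyba by 0.79, and the cytosolic subunits Ncf1 and Ncf4 by 0.54 and 1.13. The small GTPase Rac2 rose by 1.01 and the actin regulator Hcls1 was at 4.25, 5.11 and 6.46 CPM in young and 6.8, 9.96 and 11.3 CPM in treated libraries (log2 fold change 0.83 ± 0.13, adjusted p = 0.0021). Coro1a, Arpc1b, Itgal, Itga4 and Fgd2 did not pass, with log2 fold changes from 0.041 to 0.38. Lipid efflux and storage genes were higher in 2 of 12 cases (16.7%, beside 3.49% of all genes). These were the cholesterol exporter Abca1 (0.47, adjusted p = 0.0045) and apolipoprotein C1 (Apoc1, 1.02, adjusted p = 0.017).

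Levels varied between the libraries of each group (the plot of summed lists by library). Relative to the median of the young libraries, summed complement genes lay between 0.68 and 1.23 in young and between 1.34 and 2.23 in treated libraries. Young 1 and 6 were lowest in the homeostatic, disease-associated, complement and reactive astrocyte lists. Treated 1 and 6 were the lowest treated libraries in the disease-associated, complement, TREM2 and reactive astrocyte lists. Treated 3 and 4 were highest in the MHC class II list, at 3.97 and 3.17 times the young median. Median differences from young in mean log2 CPM, which are not the fitted values, are given for old control and then treated libraries. Homeostatic microglia gave 0.20 and 0.38 and disease-associated microglia 0.22 and 0.70. TREM2 gave 0.26 and 0.65, complement 0.16 and 0.65, MHC class II 0.13 and 0.89 and reactive astrocytes 0.37 and 0.79. The interferon response gave -0.13 and 0.31, oligodendrocytes -0.41 and -0.17 and choroid plexus 0.37 and 0.22. Treated and old control were not compared by a test.

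**Figure D3:**
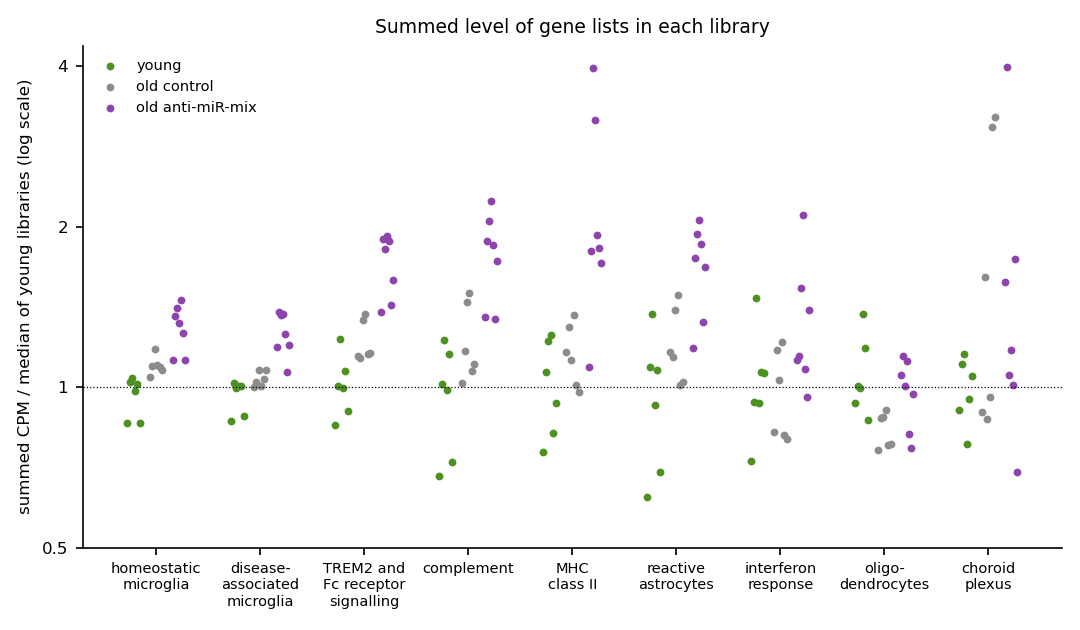
Summed CPM of the tested members of 9 gene lists in each library, divided by the median of the 6 young libraries (y axis, log scale), for young (green), old control (grey) and old anti-miR-mix (purple) libraries. Treated libraries lie above all young libraries for the homeostatic microglial, disease-associated microglial, TREM2 and complement lists. A sum gives most weight to the most abundant members of a list, such as Apoe in the disease-associated list. The choroid plexus list is highest in treated 2, at 3.98.

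Complement, a cascade of plasma proteins that tags targets for phagocytosis and that in brain is made largely by glia, was called higher in 8 of 17 genes and lower in 0 (median log2 fold change 0.83). The 3 chains of C1q, the initiator of the classical pathway, rose together. C1qa was at 35.4, 48.1 and 59.1 CPM in young and 68.3, 105 and 116 CPM in treated libraries (log2 fold change 1.03 ± 0.14, adjusted p = 0.00094), and C1qb and C1qc rose by 0.90 and 0.83 (adjusted p = 0.0013 and 0.0024). For each chain the groups did not overlap. C4b, cleaved by active C1, rose by 1.01 (adjusted p = 0.0064, with reads that the paralog C4a may share) and the protease C1s1 by 1.1 (adjusted p = 0.012). The receptor chains Itgb2 and Itgam, which bind fragments of C3, rose by 1.33 and 0.56, and the anaphylatoxin receptor C3ar1 by 1.26. C3 itself varied between libraries and did not pass (log2 fold change 1.14 ± 0.49, adjusted p = 0.22), with 3.8, 24.9 and 45.6 CPM in young and 23.2, 40.9 and 126 CPM in treated libraries. The inhibitors Cd55 and Serping1 did not pass either (-0.044 and 0.60).

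Antigen presentation genes are given by class. MHC class II, which displays peptides to helper T cells, was called higher in 5 of 8 genes, with a median log2 fold change of 1.2. H2-Aa was at 1.52, 2.85, 3.92, 2.82, 2.36 and 2.58 CPM in young 1 to 6 and at 2.09, 6.05, 17.5, 15.8, 6.66, 8.4 and 7.58 CPM in treated 1 to 7 (3.42-fold, log2 fold change 1.78 ± 0.38, adjusted p = 0.012). Treated 1 fell within the young range, and the other 6 treated libraries lay above it. The invariant chain Cd74 was at 3.33, 5.45 and 9.35 and 6.21, 15.5 and 40.9 CPM (log2 fold change 1.63 ± 0.36, adjusted p = 0.015), and H2-Ab1, H2-Eb1 and the peptide-loading chain H2-DMb1 rose by 1.61, 1.4 and 1.00. Ciita, the transactivator of class II genes, did not pass (-0.049, adjusted p = 0.91). Old control libraries gave lowest, median and highest values of 1.77, 2.99 and 4.32 CPM for H2-Aa and 5.47, 6.72 and 8.59 CPM for Cd74.

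MHC class I presentation was called higher in 3 of 14 genes (21.4%, beside 3.49% of all genes). These were the peptide transporter chains Tap1 and Tap2 and the immunoproteasome subunit Psmb9. Tap2 was at 6.34, 6.5 and 7.72 CPM in young and 8.05, 9.08 and 12.2 CPM in treated libraries (log2 fold change 0.51 ± 0.10, adjusted p = 0.0079), and Tap1 rose by 0.78, adjusted p = 0.014. The call of Psmb9 (0.78, adjusted p = 0.032) ended without young 1, 2, 4, 5 or 6 or treated 2, 3 or 4 (adjusted p from 0.054 to 0.076). The class I chains themselves did not pass, with 0.57, adjusted p = 0.12 for H2-K1, 0.48, adjusted p = 0.2 for H2-D1 and 0.55, adjusted p = 0.062 for the light chain B2m. The count of class I calls was 7 with replicate numbers as a block and 5 with all 19 libraries in one fit.

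The interferon response, the antiviral program induced by type I and type II interferons, gave 1 higher call among 30 genes (3.33%, beside 3.49% of all genes, median log2 fold change 0.38). That gene was Lgals3bp, a secreted glycoprotein, at 20.5, 29.8 and 45.8 CPM in young and 36.5, 55.7 and 85.7 CPM in treated libraries (log2 fold change 0.95 ± 0.19, adjusted p = 0.0084). The classical targets Ifit1 and Isg15 gave 0.13 and 0.41. Values were positive in 29 of 30 genes, beside 9557 of 19312 genes tested. Without young 3 or treated 2, with all 19 libraries in one fit or with DESeq2, the count of calls was 2.

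Toll-like receptors, which sense microbial and damaged molecules, and inflammasome genes were called higher in 11 of 27 cases (median 0.62). Tlr13, a sensor of bacterial ribosomal RNA, was at 2.32, 2.99 and 3.62 CPM in young and 4.73, 6.36 and 7.53 CPM in treated libraries (log2 fold change 1.06 ± 0.13, adjusted p = 0.00042), and Tlr1, Tlr2, Tlr6, Tlr7 and Tlr9 rose by 1.26, 1.1, 0.83, 0.70 and 0.66. The lipopolysaccharide co-receptor Cd14 rose by 0.96 (adjusted p = 0.0024), and the inflammasome genes Nlrp3 and Pycard by 0.76 and 0.62. The cytokines Il1a, Il1b, Il18 and Tnf did not pass (0.62, 1.16, 0.059 and 1.05), nor did the shared signalling genes Myd88, Irak1, Traf6 and Nfkb1 (0.17, 0.029, -0.019 and 0.12). Irak1 and Traf6 are textbook targets of miR-146a-5p. Among chemokines and their receptors, 5 of 18 were called higher (median 0.50). Ccl3, an inflammatory chemokine, was at 0.27, 0.506 and 1.24 CPM in young and 0.846, 2.52 and 3.6 CPM in treated libraries (log2 fold change 1.98 ± 0.37, adjusted p = 0.0055), and Ccl9, Cxcl16 and the receptor Cxcr4 rose by 0.92, 1.08 and 0.87. The call of Ccl4 (1.93, adjusted p = 0.03) ended without young 1, 2, 4 or 6 or treated 3, 4 or 7 (adjusted p from 0.053 to 0.074) and with the inferred number as a factor (adjusted p = 0.061). With that factor, 3 chemokine genes were called, and the same number was called without young 1, 4 or 6 or treated 3, 4 or 7. Cxcl9 and Cxcl10, which interferon gamma induces, gave 0.040 and 0.057.

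**Figure D4:**
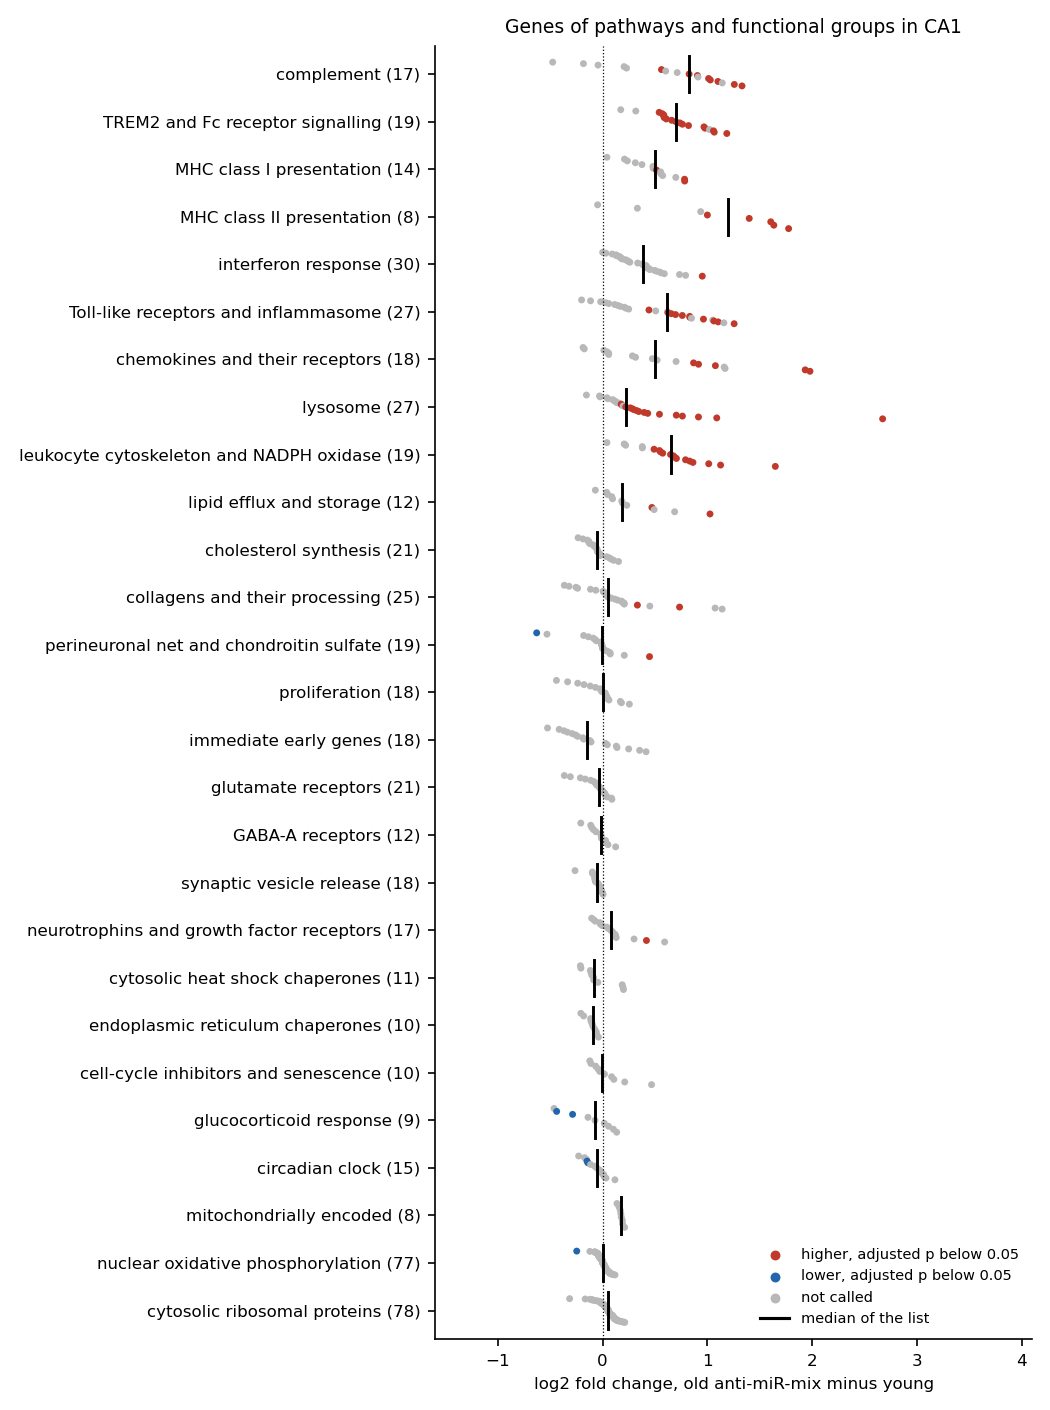
Log2 fold changes (x axis, old anti-miR-mix minus young) of genes in 27 pathways or functional groups, drawn like the plot of cell type markers. Red points gather in the complement, TREM2, MHC class II, Toll-like receptor, lysosome and NADPH oxidase lists, while all 78 ribosomal protein genes are grey.

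Leukocytes other than microglia were probed with their own lists, and their part in the results above was not tested. Summed monocyte and neutrophil genes lay at 0.701 to 3.59 CPM in young and 2.54 to 10.5 CPM in treated libraries, and 3 of 5 tested members were called higher. S100a9, a calcium-binding protein of neutrophils and monocytes, had 0 to 15 reads per young library and 14 to 81 reads per treated library, and it entered the test only through the treated libraries. The monocyte chemokine receptor Ccr2 was at 0.326, 0.385 and 1.15 and 0.608, 1.49 and 1.98 CPM (log2 fold change 1.43 ± 0.31, adjusted p = 0.013). The call of S100a8 (2.25, adjusted p = 0.033) ended without young 1, 2, 4, 5 or 6 or treated 2, 4 or 7 (adjusted p from 0.051 to 0.077). It also ended with the inferred number as a factor (adjusted p = 0.068), with replicate numbers as a block (adjusted p = 0.0501) and with limma on the deposited log2 values (log2 fold change 0.50, adjusted p = 0.064). Further members, among them Chil3, Ly6g and Retnlg, had too few reads to be tested. The count of called genes was 1 when at least 20 reads were required in 50% of the libraries.

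B and plasma cell genes gave 2 calls of 5 tested, both immunoglobulin chains. Igkc, the kappa light chain constant region, had 2, 2, 33, 1, 4 and 4 reads in young 1 to 6 and 42, 25, 236, 96, 124, 181 and 50 reads in treated 1 to 7. Treated 2 lay below young 3, and the remaining libraries of the groups did not overlap. Only 1 young library reached 5 reads, so that Igkc entered the test through the treated libraries. Ighm, the heavy chain of IgM, was at 11, 14.1 and 17.2 and 16.4, 23.3 and 36.5 CPM (log2 fold change 0.80 ± 0.15, adjusted p = 0.0055). The B cell surface markers Cd79a and Ms4a1 had 59 and 20 reads in all 13 libraries together and were not tested. The old control libraries held 131, 72, 79, 65, 64 and 55 reads of Igkc. T and natural killer cell genes gave 1 higher call of 13 (7.69%, beside 3.49% of all genes), the interleukin 2 receptor chain Il2rb (1.23, adjusted p = 0.025). Its call ended without young 1 or treated 3 (adjusted p from 0.056 to 0.062). The list gave 2 calls without young 3, 4 or 5 or treated 2 and with all 19 libraries in one fit, and 3 calls with DESeq2 or limma. The T cell receptor component Cd3e gave 0.0362, 0.15 and 0.287 CPM in young and 0.18, 0.219 and 0.519 CPM in treated libraries (1.05, adjusted p = 0.15).

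Border-associated macrophages, which line the meninges and vessels, gave 2 higher calls of 10 (20%, beside 3.49% of all genes) with a median of -0.043. These were Siglec1, a sialic acid receptor (1.47, adjusted p = 0.0099), and Ms4a7 (1.24, adjusted p = 0.028). The defining markers Mrc1, Cd163 and Lyve1 gave -0.38, -0.62 and -0.32 and did not pass. The call of Ms4a7 ended without young 1, 4, 5 or 6 or treated 2, 3, 4 or 5 (adjusted p from 0.052 to 0.069). With replicate numbers as a block, the adjusted p of Siglec1 was 0.057.

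Astrocyte markers gave 3 calls of 12, all higher (25%, beside 3.49% of all genes), with a median of 0.084. S100b, a calcium-binding protein, was at 90.2, 100.3 and 103 CPM in young and 121, 133 and 136 CPM in treated libraries, without overlap and with little spread within groups (log2 fold change 0.42 ± 0.041, adjusted p = 0.00011). Sox9, a transcription factor of astrocytes, rose by 0.43 (adjusted p = 0.0043). The glutamate transporter Slc1a3 rose by 0.19 (adjusted p = 0.028), and its call ended without young 1, 4 or 6 or treated 2, 3, 5 or 6 (adjusted p from 0.052 to 0.067). The defining markers Aqp4, the water channel of astrocytic endfeet, and Aldh1l1 did not pass (0.20, adjusted p = 0.39, and 0.072, adjusted p = 0.63).

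Reactive astrocyte genes were higher in 5 of 13 cases, with a median of 0.79. Gfap, the intermediate filament protein used to stain reactive astrocytes, was at 335, 498 and 657 CPM in young and 603, 877 and 979 CPM in treated libraries. Young 3 lay above treated 1, and the other libraries of the groups did not overlap (log2 fold change 0.77 ± 0.15, adjusted p = 0.0079). Aspg, an asparaginase, was at 1.77, 3.01 and 4.62 and 5.4, 7.26 and 8.41 CPM and Osmr, the oncostatin M receptor, at 7.16, 9.56 and 12.1 and 12.5, 18.2 and 21.1 CPM. For both, the groups did not overlap (log2 fold change 1.17 ± 0.17, adjusted p = 0.0011, and log2 fold change 0.92 ± 0.14, adjusted p = 0.0018). Vim, another filament protein, rose by 0.95 (adjusted p = 0.017). The protease inhibitor Serpina3n rose by 0.97 (adjusted p = 0.048), and its call ended without young 1, 2, 4, 5 or 6 or treated 2, 3, 4, 5 or 7 (adjusted p from 0.058 to 0.1). The acute markers Lcn2, Timp1 and Ptx3 did not pass (0.80, 0.69 and 0.69).

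Differentiating oligodendrocytes, the stage between precursors and myelinating cells, were marked by genes that were lower in treated CA1. Of 13 markers tested, 7 were called lower (53.85%, beside 1.13% of all genes) and 0 higher, with a median of -0.22. Gpr17, a receptor expressed at this stage, was at 64.8, 82, 73.3, 96.1, 79.4 and 71.9 CPM in young 1 to 6 and at 42.1, 52, 55.3, 49.6, 49.7, 43.4 and 46.1 CPM in treated 1 to 7 (0.62-fold, log2 fold change -0.69 ± 0.082, adjusted p = 0.00033). The highest treated library lay below the lowest young library. Tmem163, a zinc transporter, was at 9.89, 12.5 and 14.8 CPM in young and 6.57, 8.91 and 9.32 CPM in treated libraries (log2 fold change -0.57 ± 0.10, adjusted p = 0.0041), and the kinesin Kif19a was at 3.65, 4.21 and 5.27 and 2.48, 3.14 and 3.48 CPM (log2 fold change -0.48 ± 0.10, adjusted p = 0.015). The calcium-sensing receptor Casr rested on 11 to 27 reads per young library and 5 to 11 reads per treated library (log2 fold change -1.01 ± 0.22, adjusted p = 0.014). The groups did not overlap for any of these 4 genes in CPM. The growth factor Bmp4, the ubiquitin ligase Rnf122 and the kinase Fyn fell by 0.84, 0.62 and 0.15 on the log2 scale. Other markers of the stage did not pass, namely Enpp6 (-0.22, adjusted p = 0.42), Bcas1 (0.087, adjusted p = 0.73), Neu4, Itpr2, Mycl and Tcf7l2 (from -0.16 to 0.10). Old control libraries gave lowest, median and highest values of 37.1, 42.8 and 44.2 CPM for Gpr17 and 9.96, 10.7 and 14.3 CPM for Enpp6.

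Stages before and after this one gave few calls. Of 9 precursor markers, 0 were called with edgeR's quasi-likelihood test, with DESeq2 or with limma, 1 had an unadjusted p under 0.05, and the defining markers Pdgfra and Cspg4 gave 0.071, adjusted p = 0.53 and 0.049, adjusted p = 0.59. Of 15 mature oligodendrocyte genes, 1 was lower (6.67%, beside 1.13% of all genes), the myelin lipid raft protein Mal (-0.41, adjusted p = 0.038). Its call ended without young 1, 4 or 5 or treated 3, 5, 6 or 7 (adjusted p from 0.062 to 0.089). The major myelin gene Mbp gave -0.014, adjusted p = 0.97. It was at 2990.0, 3406 and 4835 CPM in young and 2813, 3682 and 4329 CPM in treated libraries, with wide overlap. The median of mature oligodendrocyte genes was -0.17.

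Immature neuron genes were lower in 2 of 10 cases (20%, beside 1.13% of all genes), with a median of -0.19. Dpysl3, a growth cone protein, was at 72.3, 83.9 and 90.3 CPM in young and 56.3, 65.2 and 70.5 CPM in treated libraries (log2 fold change -0.37 ± 0.054, adjusted p = 0.0013). Sox4, a transcription factor of maturing neurons and oligodendrocyte precursors, was at 7.07, 8.44 and 8.67 and 6.19, 6.42 and 7.01 CPM (log2 fold change -0.31 ± 0.067, adjusted p = 0.013), and with replicate numbers as a block its adjusted p was 0.059. For both genes the groups did not overlap. The defining markers Dcx, Sox11 and Igfbpl1 did not pass, with -0.067, adjusted p = 0.83 for Dcx, -0.37, adjusted p = 0.11 for Sox11 and -0.99, adjusted p = 0.09 for Igfbpl1.

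**Figure D5:**
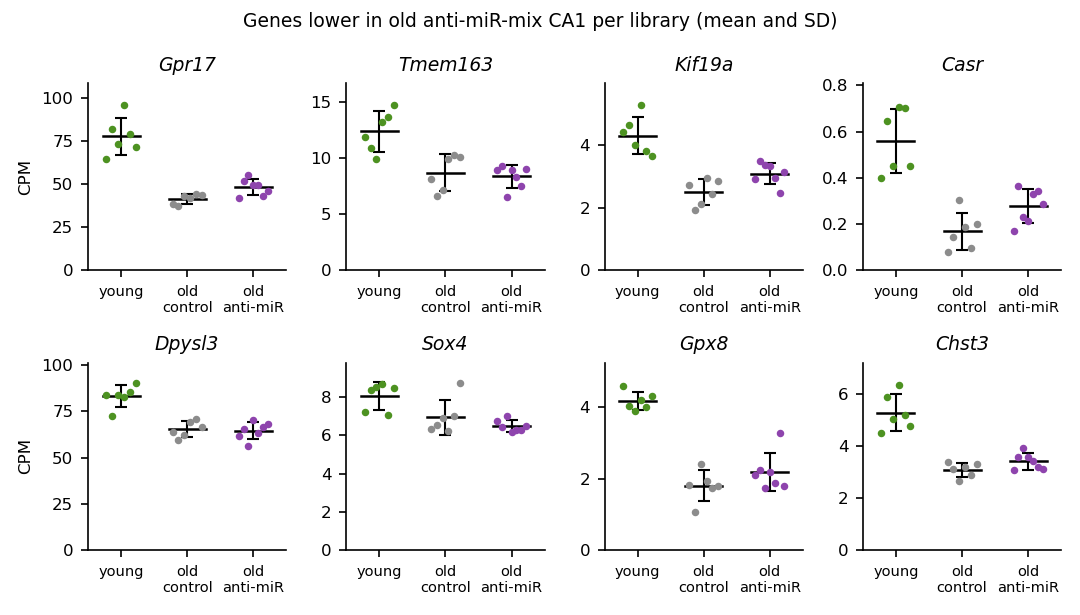
Levels (y axis, CPM from 0) of 8 genes lower in treated CA1 in every library, in the same colours and with mean and SD as in the plot of microglial and astrocytic genes. Young and treated values do not overlap in any of the 8 panels, and all old control values lie below the lowest young value for Gpr17, Kif19a, Casr, Dpysl3, Gpx8 and Chst3.

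Lists of mature neurons held 0 calls with edgeR's quasi-likelihood test as fitted. The CA1 list gave 1 lower call without a filter on low counts, with all 19 libraries in one fit, with the GC and length offset, with DESeq2, and without young 2 or 5 or treated 6. The CA3 list gave 1 lower call with the inferred number as a factor or without treated 4. The list of neurons of all kinds gave 1 lower call with all 19 libraries in one fit, with the offset or without treated 1, and 2 with DESeq2. The defining CA1 pyramidal markers were detected in all 13 libraries. Wfs1, an endoplasmic reticulum protein of these cells, was at 194, 235 and 320.0 CPM in young and 174, 191 and 227 CPM in treated libraries (log2 fold change -0.36 ± 0.10, adjusted p = 0.055), which did not pass. Fibcd1 and Mpped1 gave 0.18, adjusted p = 0.78 and -0.023, adjusted p = 0.87. Markers of neighbouring fields were also present. Bok, a CA3 marker, gave -0.0047, adjusted p = 0.99, and Prox1, a dentate granule marker, gave 0.13, adjusted p = 0.75. The dentate marker Dsp ranged from 0.507 to 18.1 CPM in young and from 0.361 to 17.4 CPM in treated libraries. Pan-neuronal Rbfox3 and Snap25 gave -0.062, adjusted p = 0.4 and -0.030, adjusted p = 0.74, and the inhibitory neuron genes Gad1, Gad2 and Slc32a1 gave -0.041, -0.000315 and -0.047 with SEs of 0.043, 0.039 and 0.046.

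In all, 23 lists with 335 tested genes held 0 calls with edgeR. Of these genes, 50 had an unadjusted p under 0.05, DESeq2 called 10 and limma on the deposited log2 values called 1. Other edgeR settings called 0 to 7 of them, with at least 1 call under 14 of 22 settings, and 13 of the 23 lists held 0 calls under every setting run. The highest edgeR count came with all 19 libraries in one fit (1 higher and 6 lower), followed by the GC and length offset (6 lower). Glutamate receptors, synaptic vesicle release and immediate early genes each held 1 of the lower calls under both settings, and immediate early genes held 2 higher calls without young 4. The lists covered CA1, CA3 and dentate neurons, neurons of all kinds, inhibitory neurons, oligodendrocyte precursors, endothelial cells, pericytes and smooth muscle, leptomeningeal fibroblasts, ependymal cells, choroid plexus and red blood cells. On the side of pathways they covered glutamate receptors, GABA-A receptors, synaptic vesicle release, immediate early genes, cytosolic and endoplasmic reticulum chaperones, cholesterol synthesis, proliferation, cell-cycle inhibitors, mitochondrially encoded genes and ribosomal proteins. List medians were -0.031 for glutamate receptors, -0.016 for GABA-A receptors, -0.057 for synaptic vesicle release and 0.054 for ribosomal proteins. Of 13 mitochondrially encoded genes, mt-Co2, mt-Co3, mt-Atp6, mt-Atp8 and mt-Nd4l are listed at 0 reads in all 13 libraries and were not tested. The 8 tested genes had positive values (range 0.14 to 0.21), and 6 of them had an unadjusted p under 0.05. With the inferred number as a factor or without treated 1, 2 of them were called higher, and 1 was with library totals, the filter of 20 reads, the inferred number as a linear term or DESeq2. Of the 77 nuclear genes of oxidative phosphorylation, the ATP synthase subunit Atp5g1 was lower (-0.25, adjusted p = 0.017), which is 1.3% of the list beside 1.13% of all genes, and the median was 0.0014.

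Markers of tissue next to CA1 varied between libraries. The choroid plexus transport protein Ttr was at 2.56, 5.19 and 7.13 CPM in young and 0.866, 14.6 and 86.3 CPM in treated libraries, with the highest value in treated 2 (log2 fold change 2.03 ± 0.82, adjusted p = 0.19). The other choroid markers Kl, Clic6 and Otx2 gave 0.12, 0.64 and 0.78. Of 8 thalamus markers, 1 was called higher (12.5%, beside 3.49% of all genes), namely Prkcd (0.50, adjusted p = 0.011). Slc17a6 and Tnnt1 gave -0.26, adjusted p = 0.4 and -0.19, adjusted p = 0.59. Endothelial Cldn5 and Flt1 gave 0.063, adjusted p = 0.79 and -0.021, adjusted p = 0.89, and the pericyte receptor Pdgfrb gave -0.010, adjusted p = 0.96.

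Single members were called in several smaller pathways. In the extracellular matrix, the collagen chain Col5a3 was at 2.64, 3.27 and 3.84 CPM in young and 4.95, 5.37 and 6.39 CPM in treated libraries (log2 fold change 0.73 ± 0.10, adjusted p = 0.0007), and the matrix protein Sparc was at 230.4, 246 and 289 and 304, 321 and 351 CPM (log2 fold change 0.33 ± 0.055, adjusted p = 0.0026), both without overlap. These were 2 of 25 collagen and processing genes (8%, beside 3.49% of all genes). Chst3, which adds sulfate to chondroitin in perineuronal nets, was lower, at 4.49, 5.11 and 6.37 CPM in young and 3.07, 3.42 and 3.94 CPM in treated libraries (log2 fold change -0.63 ± 0.10, adjusted p = 0.0015). Hapln2, a link protein at nodes of Ranvier, was higher (0.45, adjusted p = 0.025), but its call ended without young 1 or 6 or treated 2 (adjusted p from 0.052 to 0.065), with the inferred number as a factor (adjusted p = 0.082) and with replicate numbers as a block (adjusted p = 0.072). The core proteoglycans Acan, Bcan and Ncan gave 0.020, -0.018 and -0.14. Chst3 and Hapln2 were 1 lower and 1 higher call among 19 genes (5.26% each, beside 1.13% and 3.49% of all genes). Fibroblast growth factor 2 (Fgf2), a mitogen made by astrocytes, was at 9.69, 10.6 and 13 and 13.4, 14 and 17 CPM (log2 fold change 0.42 ± 0.085, adjusted p = 0.0097). It was 1 of 17 genes for neurotrophins and growth factor receptors (5.88%, beside 3.49% of all genes).

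Glucocorticoid response genes gave 2 lower calls of 9 (22.2%, beside 1.13% of all genes). Hsd11b1, which regenerates active glucocorticoid, was at 24.3, 25.2 and 33.2 CPM in young and 19.4, 21.4 and 23.8 CPM in treated libraries (log2 fold change -0.29 ± 0.074, adjusted p = 0.035). Tsc22d3 (GILZ), a glucocorticoid-induced protein, gave -0.44, adjusted p = 0.035. The call of Hsd11b1 ended without young 3 or 6 or treated 2, 3, 5, 6 or 7 (adjusted p from 0.057 to 0.067), and that of Tsc22d3 ended without young 1, 4 or 5 or treated 2, 3, 5, 6 or 7 (adjusted p from 0.051 to 0.083), with the inferred number as a factor (adjusted p = 0.084) and with replicate numbers as a block (adjusted p = 0.0545). Fkbp5 and Sgk1, other targets of the receptor, gave 0.10 and -0.46. The clock genes Clock and Tef were lower by small amounts (-0.14, adjusted p = 0.038, and -0.15, adjusted p = 0.043). They were 2 of 15 clock genes tested (13.3%, beside 1.13% of all genes). The call of Clock ended without young 1, 2, 3, 4, 5 or 6 or treated 2, 3, 4 or 6 (adjusted p from 0.053 to 0.098), and that of Tef ended without young 1, 3, 4, 5 or 6 or treated 2, 3, 4, 5, 6 or 7 (adjusted p from 0.054 to 0.1). The call of Tef also ended with library totals, without a filter on low counts, with all 19 libraries in one fit, with the inferred number as a linear term, with the replicate block and with limma (adjusted p from 0.056 to 0.097). That of Clock also ended without a filter, with the linear term and with the block (adjusted p from 0.0505 to 0.081).

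Among all genes, those with the lowest p-values included several outside the lists. Spag6, a sperm and cilium protein gene, was at 1.74, 2.2 and 2.67 CPM in young and 4.29, 4.83 and 5.67 CPM in treated libraries (log2 fold change 1.19 ± 0.11, adjusted p = 0.00011), and it overlaps Gm20539 on the other strand and has a close paralog, Spag6l, with which reads may be shared. Ccdc88b, a coiled-coil protein of leukocytes, was at 5.05, 5.67 and 6.21 and 8.46, 8.88 and 9.58 CPM (log2 fold change 0.67 ± 0.064, adjusted p = 0.00011). Lag3, a receptor that binds MHC class II, was at 7.86, 9.44 and 11.6 and 15.8, 21.6 and 27.2 CPM, and Havcr2 (TIM-3) was at 3.51, 3.85 and 4.43 and 5.71, 7.53 and 8.02 CPM. Their differences were 2.24-fold and 1.87-fold (adjusted p = 0.00011 and 0.00011). The ion channel genes Tmem176a and Tmem176b rose by 0.66 and 0.47, and the melanophilin gene Mlph rose by 1.12 (adjusted p = 0.00015). Among the largest changes outside the lists were the macrophage elastase Mmp12, with 0 to 13 reads per young library and 17 to 54 reads per treated library (log2 fold change 2.84 ± 0.46, adjusted p = 0.0023), the niacin receptor Hcar2 (log2 fold change 2.81 ± 0.50, adjusted p = 0.0045) and the Src-family kinase Fgr (log2 fold change 2.47 ± 0.33, adjusted p = 0.00074). All of these were higher in every treated than in every young library, which was a condition for naming them here.

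Most of the lower genes named from all genes showed small differences, while Gpx8, Itga10 and Gm45819 fell by more. Eml1, a microtubule-binding protein, was at 68.5, 69.2 and 71.5 CPM in young and 55.8, 59.4 and 62 CPM in treated libraries (log2 fold change -0.23 ± 0.031, adjusted p = 0.00074). Gpx8, a peroxidase of the endoplasmic reticulum, was at 3.89, 4.11 and 4.6 and 1.75, 2.09 and 3.29 CPM (0.523-fold, log2 fold change -0.94 ± 0.13, adjusted p = 0.00077). The fatty acid elongase Elovl6 was at 84.4, 88 and 95.9 and 69, 74.5 and 80.3 CPM (log2 fold change -0.25 ± 0.038, adjusted p = 0.0018). Shroom2, which organises apical actin, and Mgat5, which branches N-linked sugars, fell by 0.21 and 0.24 (adjusted p = 0.0018 and 0.0021). Signalling genes in this set were Map3k13, a kinase of the axon injury response, Pik3r3, a regulatory subunit of PI3 kinase, Gnb4, a G protein subunit, and Trib2, a pseudokinase, which fell by 0.32, 0.28, 0.30 and 0.28. The integrin chain Itga10 fell by 0.56 (adjusted p = 0.0065). The unclassified transcript Gm45819 fell by 0.53 (adjusted p = 0.019), but its call ended without young 6 (adjusted p = 0.06) and with the inferred number as a factor (adjusted p = 0.054). The groups did not overlap for any gene of this paragraph, which was a condition for naming them here. Old control libraries gave lowest, median and highest values of 55.3, 61.3 and 64.2 CPM for Eml1 and 1.07, 1.81 and 2.42 CPM for Gpx8.

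Further groups were assembled after the calls had been seen and are described without a test. Their counts stand beside 3.49% of all genes called higher and 1.13% called lower. Of 9 SLAM family receptors, which regulate leukocyte contacts, 6 were called higher (median 1.33), with Cd84 at 3.05, 3.63 and 4.22 CPM in young and 6.01, 10.2 and 11.1 CPM in treated libraries (log2 fold change 1.33 ± 0.15, adjusted p = 0.0002). Of 12 CD300 receptors, which bind lipids on dying cells, 6 were tested and 5 called higher. Of these calls, Cd300lb and Cd300ld entered the test only through the treated libraries, and Cd300lb reached 5 reads in 0 young libraries. Receptors and ligands known as T cell checkpoints were called in 7 of 9 cases, among them Pdcd1 (PD-1, 2.09, adjusted p = 0.0055) and Cd274 (PD-L1, 0.92, adjusted p = 0.012). All 5 receptor chains for colony-stimulating factors 2 and 3 and interleukin 3 were higher, from 0.22 for Csf2ra to 1.41 for Csf2rb2. The NAIP sensors of bacterial proteins were higher in 3 of 4 cases. The NAIP genes and the pair Csf2rb and Csf2rb2 are near-identical paralogs, so the division of reads among them is uncertain.

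Clustered protocadherins, cell-surface proteins whose combinations give neurons an identity, were called higher in 10 of 54 genes (18.5%, beside 3.49% of all genes) and lower in 0. Their median was 0.00833, so that the calls concerned a subset of the cluster, 7 genes of the beta and 3 of the gamma-A type. Pcdhb9 was at 12.2, 12.9 and 15.2 CPM in young and 19, 21.5 and 24.3 CPM in treated libraries (log2 fold change 0.69 ± 0.068, adjusted p = 0.00011), and old control libraries gave 20.2, 22.2 and 23.6 CPM. The other 9 rose by 0.34 to 0.73. These genes resemble each other and the gamma genes share their last exons, so the division of reads among them is uncertain.

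Some genes for amino acid handling were lower, in groups that were also assembled after the calls had been seen. Of 14 transporters, 4 were called lower (28.6%, beside 1.13% of all genes) and 1 higher (7.14%, beside 3.49%), with a median of -0.091. The large neutral amino acid transporter Slc7a5 fell by 0.31 (adjusted p = 0.0068), Slc38a2 by 0.25, the astrocytic transporter Slc7a10 by 0.24 and the cationic transporter Slc7a1 by 0.20, while the glutamine transporter Slc38a3 rose by 0.17 (adjusted p = 0.048). Of 20 cytosolic aminoacyl-tRNA synthetases, 2 were lower (10%, beside 1.13% of all genes) and 18 were not called, with a median of -0.058. The lower genes were Cars (-0.19, adjusted p = 0.0046) and Iars (-0.14, adjusted p = 0.017). Growth cone genes related to Dpysl3 were lower in 2 of 8 cases (25%, beside 1.13% of all genes), Dpysl5 (-0.30, adjusted p = 0.011) and Dpysl4 (-0.18, adjusted p = 0.011).

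Promoters were searched on both strands for 4 motifs in the 250 bases before and 50 bases after each RefSeq start site (GRCm38.p6), which covered 13126 of the 19298 tested genes with a unique symbol. The letters GAGGAAGT, a core recognised by PU.1, were present for 54 of 508 higher genes (10.6%), 6 of 161 lower genes (3.73%) and 454 of all 13126 genes (3.46%). By list, they were present for 3 of 14 genes of TREM2 and Fc receptor signalling, 1 of 18 disease-associated and 0 of 10 homeostatic microglial genes, and 0 of 20 interferon response and 0 of 5 MHC class II genes. GAAANNGAA, the core of the interferon-stimulated response element, was present for 13.4% of higher, 5.59% of lower and 8.82% of all genes. It was present for 14 of 20 genes of the interferon response list. TGACTCA, the AP-1 motif, was present for 7.68%, 6.83% and 4.73%, and TGACGTCA, the cyclic AMP response element, for 1.38%, 3.73% and 3.21%. Matches of different motifs may overlap. A match describes the letters only.

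Promoters of 2 genes of the TREM2 cascade that were called higher and of the microglial protease gene Ctss (0.91, adjusted p = 0.003) are shown as examples, chosen because they hold the PU.1 letters, with the letters or their reverse complement in capitals.
Inpp5d (chr1:87620062-87620361, + strand): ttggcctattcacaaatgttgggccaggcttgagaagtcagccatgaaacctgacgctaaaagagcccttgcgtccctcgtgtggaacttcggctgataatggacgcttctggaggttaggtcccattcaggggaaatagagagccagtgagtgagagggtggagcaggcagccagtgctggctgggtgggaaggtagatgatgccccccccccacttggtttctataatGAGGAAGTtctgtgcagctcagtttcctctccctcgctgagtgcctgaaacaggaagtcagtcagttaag
Vav1 (chr17:57278850-57279149, + strand): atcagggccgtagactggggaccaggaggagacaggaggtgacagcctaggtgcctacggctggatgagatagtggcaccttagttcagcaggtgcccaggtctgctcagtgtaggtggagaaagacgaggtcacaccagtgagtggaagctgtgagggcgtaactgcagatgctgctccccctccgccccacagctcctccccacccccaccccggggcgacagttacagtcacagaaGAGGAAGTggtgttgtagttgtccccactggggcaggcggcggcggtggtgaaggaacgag
Ctss (chr3:95526536-95526835, + strand): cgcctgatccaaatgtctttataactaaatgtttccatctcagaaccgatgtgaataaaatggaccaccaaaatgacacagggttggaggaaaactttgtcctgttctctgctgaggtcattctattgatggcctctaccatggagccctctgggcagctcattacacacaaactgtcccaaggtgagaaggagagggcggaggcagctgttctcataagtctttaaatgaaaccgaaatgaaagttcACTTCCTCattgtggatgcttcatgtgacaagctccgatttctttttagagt
In Inpp5d and Vav1 the letters begin 20 and 11 bases before the start site on the strand of the gene, and in Ctss the reverse complement begins 2 bases before the start site and runs past it.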

How the data were processed

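CA1 of 6 young and 7 old anti-miR-mix mice was compared. Per the study's methods and the submitters' processing notes, the authors made polyadenylated RNA libraries with a TruSeq kit, sequenced single-end reads, checked them with FastQC 0.11.5, aligned them to mm10 (GRCm38) with STAR 2.5.2b and assigned them to genes with featureCounts of Subread 1.5.1. The strand and multi-mapping options are not given in the sources used here. The deposited count files hold raw counts of reads per Ensembl gene and library. The authors' deposited log2 table for 18761 genes equals log2(CPM + 1), with plain totals, minus a slope times a whole number per library, to within 3.4e-08. The number was inferred here (inferred number, meaning not given in the sources used here), and the table was used for 1 alternative only. All columns were assigned to a library, and 0 were left out.

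Genes reaching 5 reads in 50% or more of the libraries were kept (19312). Counts were scaled by TMM and tested with edgeR 4.0.16 (R 4.3.3) by the quasi-likelihood F test on group, with Benjamini-Hochberg adjustment over all genes tested and a threshold of 0.05. SEs were derived from the fold change and the F statistic. CPM are reads scaled to the library's total of tested genes after TMM adjustment. A single library resolves about 3 reads (0.0771 to 0.113 CPM on the total of assigned reads). This floor covers counting error only, while the SEs also hold the spread between libraries. The steps were also run on simulated counts with as many raised as lowered genes. These counts were drawn independently, without variation shared between genes of a library, so the run does not measure error rates in these data. Alternatives were RLE scaling, library totals, 2 other filters, all 19 libraries, the inferred number as a factor or linear term, replicate numbers as a block, a GC and length offset, DESeq2 1.42.0, limma 3.58.1 on the log2 values, and each library left out.

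Same-numbered samples of the groups are not stated to be related, and their deviations correlated between -0.487 and 0.221, so the numbers were not treated as pairs. Symbols came from GENCODE annotation of GRCm38 (48349 identifiers matched). The members and the 51 lists (828 genes tested, 27 not tested) were chosen with earlier results of these data known, so lists are described by counts and medians without a test. Named genes were the defining markers and up to 4 called members per direction of each list by p, the 12 lowest p-values and 6 largest fold changes per direction over all genes without overlap and with at least 20 reads on average. List members outside this rule and groups assembled after their values were seen are also named. Some genes are not reported here.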

Additional observations from a re-analysis of the deposited data

Results flagged for a closer look

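In 312 comparisons of 1 library with the others of its group, 18 values (5.77%) stood apart by Dixon's criterion, and chance flags about 1 in 20 groups. Young 3 was highest among young libraries for Ctse (0.151 CPM, next 0.0724), Igkc (0.996, next 0.127), Tap2 (7.72, next 6.76), Ccr2 (1.15, next 0.532), Cxcl16 (3.62, next 2.55) and Ly6c2 (0.845, next 0.313). Of these, all but Ly6c2 were called higher in treated CA1, and Ctse and Igkc entered that test only through the treated libraries. Young 4 was highest for Hsd11b1 (33.2 CPM, next 25.7) and young 6 for Lum (5.3, next 3.0). Young 2 was lowest for Tubb3 (249 CPM, next 266) and Slc17a6 (62.5, next 78.6), and young 1 for Aqp4 (127 CPM, next 165).

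Among treated libraries, treated 6 was highest for Gpx8 (3.29 CPM, next 2.25), Cd163 (1.16, next 0.915) and the meningeal transporter Slc6a13 (11.6, next 5.46). Treated 4 was highest for Arhgdib (14.4 CPM, next 12.6) and H2-DMb1 (3.23, next 2.11). Treated 2 was highest for Ttr (86.3 CPM, next 20.6) and treated 1 for the ependymal gene Ccdc153 (0.776, next 0.30). Ttr and Ccdc153 did not pass the test between groups.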

How the results depend on the processing

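The count of called genes lay between 616 and 1079 when each library was left out, with 497 to 798 higher and 95 to 281 lower genes. The lower count fell to 119, 110, 126, 139 and 95 without young 1, 3, 4, 5 and 6 and to 130 and 137 without treated 3 and 4. It was 135 with library totals, 146 without a filter, 408 with the GC and length offset and 410 with DESeq2. The cause was not tested. The total with DESeq2 was 1284 and the higher count stayed within 1.5 times 674 under all 24 alternatives. With replicate numbers as a block, 659 genes were called (569 higher and 90 lower). Of 6 numbers, 0 marked pairs that correlated best with each other, and the block ended the calls of Sox4 and Siglec1 among others. Of 100 named genes called, 93 could be tested under all 24 alternatives, and 79 of these were called under each. The other 7 were not among the genes tested under 1 or 2 alternatives, and 5 of them were called wherever they were tested. In all, 0 of the 156 named genes changed direction where the main test or the alternative called them. Changes of sign in genes called by neither were not counted. Of 27 lists with a median beyond 0.1, 25 kept their sign everywhere, the exceptions being ependymal cells and immediate early genes. Counts of B cell, monocyte and T cell genes rest on few reads and are limited by depth.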
